A study of Mus musculus with 2 samples.

Results

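The transporters of the blood-brain barrier described here are 10 genes, Slc2a1, Slc16a1, Slc7a5, Slc3a2, Slc7a1, Slco1a4, Slco1c1, Slco2b1, Abcb1a and Abcg2, taken by symbol from the 19059 genes measured. They were followed in endothelial-like cells, their capillary, arterial and venous groups, and the other cell classes of hippocampal samples from aged mice. The study compared C57BL/6 mice that ate chow without tomatidine (control) with mice that ate chow holding 0.05% tomatidine, a steroidal alkaloid of tomato. Treatment began at 21 months of age and lasted 3 months. Hippocampi of 4 mice were pooled in each group, so that each group is 1 library and no difference between the groups has a replicate check. Frozen tissue was dissociated and fixed, pairs of probes bound to each transcript were counted as unique molecular identifiers (UMIs), and 15115 control and 14503 tomatidine cells were kept. By marker genes, 349 and 32 of them were choroid plexus-like and 591 and 938 subcortical neuron-like. Not all classes are therefore of the hippocampus itself.

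The endothelium of the brain is sealed by tight junctions, so that nutrients cross it on carriers and many lipid-soluble compounds are pumped back into the blood. Solute carriers (Slc genes) bring in glucose, amino acids and monocarboxylates, organic anion carriers (Slco genes) move thyroid hormone, bile acids and steroid conjugates, and the ATP-driven exporters of the ABC family face the blood. Capillaries make up most of the exchange surface and are covered by pericytes, the mural cells of small vessels.

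Of the kept cells, 303 control and 420 tomatidine cells formed a single endothelial-like cluster, found with the members and 31 other listed transporter genes left out. All 14 endothelial markers in the files were found in both libraries, at 11112 CPM in control and 12350 CPM in tomatidine. CPM are the UMIs of a gene per 1000000 UMIs of the class in that library. RNA of neighbouring cells was also present. Mural markers summed to 6675 and 8234 CPM, with none of the 12 at 0 in either library, and at least 3 of them were found in 151 of the control and 205 of the tomatidine cells. Astrocyte markers reached 4238 and 3204 CPM, oligodendrocyte markers 4183 and 3481 CPM, and choroid plexus markers 2762 and 307 CPM, the widest gap between the libraries among these lists. Depth differed too, with a median of 6156 UMIs per endothelial-like cell in control and 4501 in tomatidine. The part of this RNA and of depth in the results below was not tested except where a value is given. Intervals are 95% and cover counting error only. Probes differ between genes, so a gene's level was compared between cells and libraries, and levels of different genes were not ranked.

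Glucose and monocarboxylate carriers came first. Slc2a1 (ENSMUSG00000028645, GRCm38 chromosome 4, 119108711 to 119137983, plus strand) encodes GLUT1, which brings glucose across the barrier. It had 9946 UMIs in control endothelial-like cells, a level of 2835 CPM (exact Poisson interval 2779 to 2891). In tomatidine cells it had 10748 UMIs and 2785 CPM (2733 to 2838). Both levels were far above that of all other cells, by 39.1-fold in control and 43.1-fold in tomatidine, yet endothelial-like cells held only 40.3% and 45.8% of all Slc2a1 UMIs. Ependymal-like cells, which line the ventricles, came next with 1505 and 1956 CPM. Oligodendrocyte-like cells had 239 and 204 CPM, and 4691 and 3068 UMIs in all because these cells were many.

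Slc16a1 (ENSMUSG00000032902, chromosome 3, 104638668 to 104658462, plus strand) encodes MCT1, a carrier of lactate and ketone bodies. Its endothelial-like level was 414 CPM (393 to 436) in control and 391 CPM (372 to 411) in tomatidine, 8.18-fold and 7.56-fold that of all other cells. Ependymal-like cells had 250 and 298 CPM, and oligodendrocyte-like cells, which also use MCT1, had 160 and 175 CPM. So the endothelial-like level was the highest of the 13 named classes for both carriers, but by less than 2-fold over the next.

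Among amino acid carriers, Slc7a5 and Slc3a2 encode the light chain LAT1 and the heavy chain 4F2hc of the carrier of large neutral amino acids, and Slc7a1 encodes CAT1, which carries arginine and lysine. Slc7a5 (ENSMUSG00000040010, chromosome 8, 121881150 to 121907694, minus strand) stood at 1246 CPM (1209 to 1283) in control and 1347 CPM (1311 to 1384) in tomatidine. The next class had 135 CPM in control (interneuron-like cells) and 154 CPM in tomatidine (oligodendrocyte precursor-like cells), 9.20-fold and 8.77-fold less. Slc7a1 (ENSMUSG00000041313, chromosome 5, 148327410 to 148399904, minus strand) stood at 154 CPM (142 to 168) and 144 CPM (133 to 157), with interneuron-like cells next at 48.5 and 39.5 CPM.

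Slc3a2 (ENSMUSG00000010095, chromosome 19, 8706882 to 8723369, minus strand) was the member with the lowest fold over other cells. It had 609 CPM (584 to 635) in control and 578 CPM (554 to 602) in tomatidine, against 876 and 797 CPM in fibroblast-like cells. Its UMIs were found in every class, down to 111 and 100 CPM in Cajal-Retzius-like neurons, and endothelial-like cells held 5.62% and 6.11% of its UMIs. The 4F2 heavy chain also pairs with other light chains. Among the UMIs of the LAT1 pair, Slc7a5 made up 67.2% (exact binomial interval 66.0 to 68.3) in control endothelial-like cells and 70.0% (68.9 to 71.0) in tomatidine ones. In interneuron-like cells the share was 41.2% and 39.9%, in astrocyte-like cells 23.2% and 23.3%, and in fibroblast-like cells 5.58% and 5.24%. The share depends on the probes of both genes, so it can be set between classes but gives no ratio of molecules.

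The organic anion carriers divided into one found mostly in endothelial-like cells and a pair with high levels in other classes too. Slco1a4 (ENSMUSG00000030237, chromosome 6, 141805440 to 141856199, minus strand), which encodes a carrier of bile acids and steroid conjugates, stood at 921 CPM (890 to 954) and 939 CPM (908 to 970). That was 260-fold and 341-fold the level of all other cells, and endothelial-like cells held 81.8% and 87.0% of its UMIs. Its close relatives Slco1a5 and Slco1a6 had 0 UMIs in endothelial-like cells of either library, which allows up to 0.855 and 0.777 CPM. Slco1c1 (ENSMUSG00000030235, chromosome 6, 141524368 to 141570177, plus strand), whose product takes up thyroxine, stood at 1162 CPM (1127 to 1198) and 1103 CPM (1070 to 1137). Choroid plexus-like cells followed with 650 and 626 CPM, and astrocyte-like cells with 145 and 127 CPM. Slco2b1 (ENSMUSG00000030737, chromosome 7, 99657804 to 99711340, minus strand), another organic anion carrier, stood at 160 CPM (147 to 174) and 174 CPM (161 to 188). Its level was higher in microglia-like cells, at 1314 and 1192 CPM, so that endothelial-like cells held only 10.3% and 14.3% of its UMIs.

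Of the ABC exporters, Abcb1a was the member with the largest share of its UMIs in endothelial-like cells. Abcb1a (ENSMUSG00000040584, chromosome 5, 8660077 to 8748575, plus strand) encodes a P-glycoprotein of the mouse, the exporter of many drugs. It stood at 864 CPM (833 to 895) in control and 949 CPM (919 to 981) in tomatidine, and endothelial-like cells held 90.3% and 88.0% of its UMIs. The remaining cells averaged 1.60 and 2.54 CPM, with fibroblast-like cells highest at 45.7 and 64.1 CPM. Abcg2 (ENSMUSG00000029802, chromosome 6, 58584523 to 58695676, plus strand), which encodes the breast cancer resistance protein, stood at 212 CPM (197 to 228) and 250 CPM (234 to 266), 22.8-fold and 26.2-fold that of other cells.

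Against all other cells together, 9 of the 10 members were at least 4-fold higher in endothelial-like cells in both libraries, where 9.31% of the 10267 genes with at least 100 UMIs in these cells were. The exception was Slc3a2, at 3.45-fold and 3.32-fold. For 8 members the endothelial-like level was the highest of the 13 named classes in both libraries, the exceptions being Slc3a2 and Slco2b1. How many of all genes were highest there was not counted. How far RNA of the members was found outside the endothelium was gauged in oligodendrocyte-like cells (median 5326 and 4881 UMIs per cell). This gives no measure of the RNA of other cells within endothelial-like cells. Of endothelial-like cells, 92.1% in control and 85.2% in tomatidine held at least 3 oligodendrocyte markers. With each cell thinned to 1500 UMIs, Abcb1a was found in 64.6% of control and 70.3% of tomatidine endothelial-like cells, against 0.323% and 0.424% of oligodendrocyte-like cells. For Slco1a4 the thinned shares were 63.8% and 67.4%, against 0.667% and 0.501%. Slc2a1, Slc16a1 and Slc3a2 were found in 29.6%, 20.7% and 24.9% of control oligodendrocyte-like cells at that depth. Shares of different genes also depend on their probes.

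**Figure D1:**
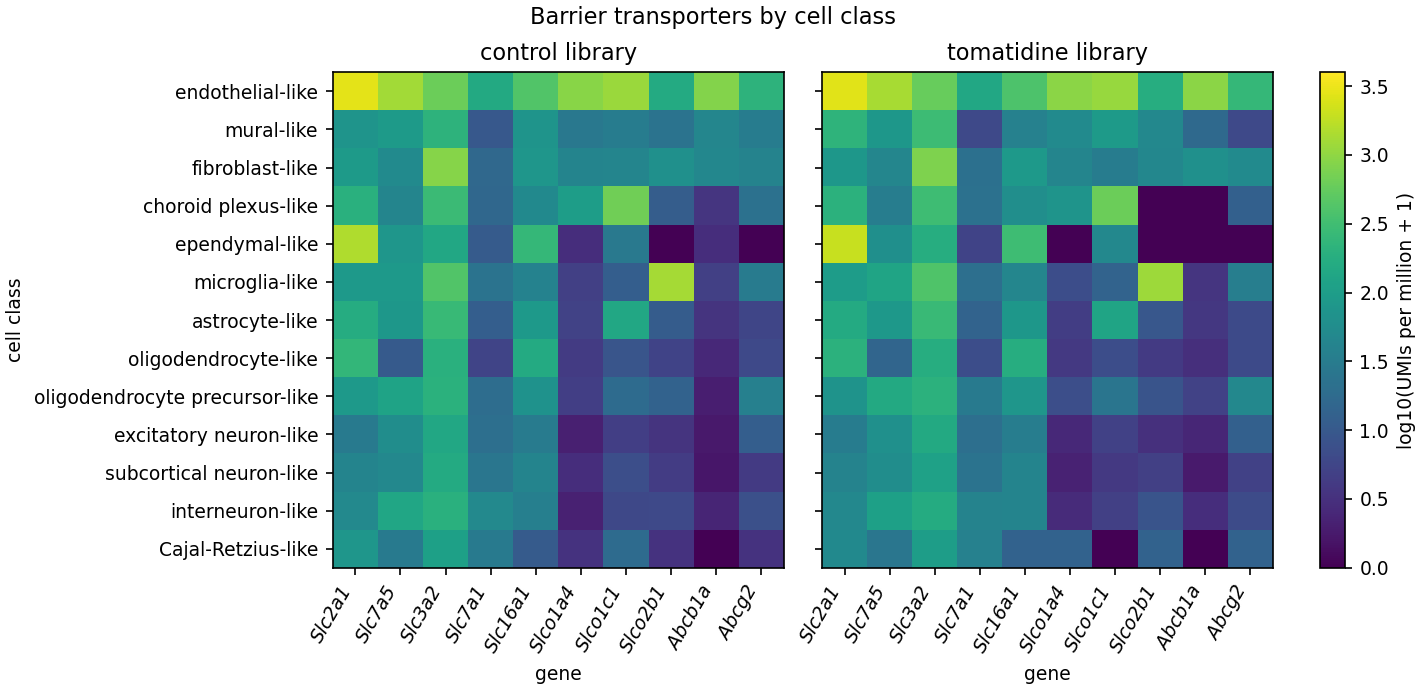
Level of each transporter gene (columns) in each named cell class (rows) of the control (left) and tomatidine (right) library, as log10 of CPM plus 1. The top row, endothelial-like cells, is the brightest for 8 of the 10 genes; Slco2b1 is brighter in microglia-like cells (1314 and 1192 CPM) and Slc3a2 in fibroblast-like cells (876 and 797 CPM).

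The 5 genes whose levels were most like the mean profile of the 9 enriched members, over 26 sums (13 classes in each library) on the log2(CPM + 1) scale, were Ly6a (Pearson r = 0.93), Ctla2a (0.92), Tie1 (0.92), Slc52a3 (0.92) and Cd93 (0.91). Tie1 is an endothelial receptor used to name the cluster, and Slc52a3 encodes a riboflavin carrier. These correlations share libraries and cells and are a description. Among the members, r with the profile ran from 0.55 for Slc7a1 to 0.91 for Abcb1a.

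Promoter windows from RefSeq (GRCm38.p6, 250 bases before to 50 after each listed start) were available for 9 of the 10 members, at 14 starts. They were searched on both strands for 5 short motifs that belong to pathways known to act on barrier or nutrient genes. CTTTGAA, bound by the TCF/LEF factors of Wnt signalling, which maintains the barrier, was found for 3 members, Abcb1a, Slc3a2 and Slc7a1, and in 5.14% of all 32851 windows. ACGTG, the core of the hypoxia response element, was found for 4 members (Slc2a1, Slc16a1, Slc3a2 and Slco1c1) and in 19.6% of all windows. TGACNNNGC, the core of the antioxidant response element, was found for Abcb1a, Slc16a1 and Slc7a1, against 12.4% of windows, and CCGGAAG, an ETS motif, for Slc3a2 and Slco2b1, against 8.86%. TGATGNAA, the core of the amino acid response element, was found for none, against 3.97%. These percentages are of windows, not of genes. Of the 14 member windows, 3, 4, 3, 2 and 0 held the motifs, in the order named. ACGTG and TGACNNNGC matches overlap in the Slc16a1 window, as GTCACGTG. Stretches of 30 bases around the TCF/LEF matches, and around the hypoxia core of the glucose carrier, are shown 5′ to 3′ on the strand of the gene, with every match in capitals.
Abcb1a, chr5:8566927-8566956, plus strand: actctttaataCTTTGAAggcagttatgta
Abcb1a, chr5:8567021-8567050, plus strand: cagattactgcTTCAAAGttgcctgcctta
Slc3a2, chr19:8714068-8714097, minus strand: cggaggaggggCTTTGAAacctggtcaaga
Slc7a1, chr5:148392943-148392972, minus strand: gagggccactcTTCAAAGaagccCTTTGAA
Slc2a1, chr4:119108697-119108726, plus strand: gtcccgccccggACGTGctccccaggcccc
The Abcb1a window belongs to a RefSeq start 92986 bases before the gene start of GENCODE, and those of Slc3a2 and of this Slc7a1 start lie 9472 and 7089 bases inside the gene, so the TCF/LEF matches are at alternative starts. The Slc2a1 window begins from a start 34 bases inside the GENCODE gene. A match is a stretch of letters, and binding was not measured.

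Endothelial-like cells were divided by markers that hold no transporter into capillary (160 control, 173 tomatidine), arterial (48 and 78) and venous cells (30 and 78), while 65 and 91 cells stayed without a group. Among genes not used for the division, Mfsd2a, a lipid carrier known from capillaries, was highest in capillary cells (317 and 255 CPM), and Slc38a5, an amino acid carrier known from veins, in venous cells (628 and 761 CPM). The groups also differed in endothelial RNA. Endothelial markers summed to 14146 and 14835 CPM in capillary cells, to 8121 and 9517 CPM in arterial cells, and to 7334 and 11869 CPM in venous cells. Acta2, a gene of smooth muscle, was at 436 and 1643 CPM in arterial cells and at or near 0 in capillary cells. Mural markers summed to 7806 and 8522 CPM in capillary, 7151 and 9716 CPM in arterial and 2432 and 3717 CPM in venous cells. Cells without a group had 2204 and 6717 CPM of them. More mural than endothelial markers were found in 11 control and 37 tomatidine endothelial-like cells. Whether these are mural cells was not tested. Vessel levels are given in CPM, and most folds between the vessel groups also per endothelial marker UMI. Choroid plexus markers in capillary cells were at 4355 CPM in control and 253 CPM in tomatidine.

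Slc16a1 had the steepest fall from capillary to arterial cells. It stood at 653 CPM in capillary, 99.2 CPM in arterial and 177 CPM in venous control cells. In tomatidine the levels were 608, 93.9 and 333 CPM. Capillary cells were thus 6.58-fold (counting interval 5.35 to 8.18) and 6.48-fold (5.35 to 7.91) over arterial cells, or 3.78-fold and 4.16-fold per endothelial marker UMI.

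The amino acid carriers Slc7a5 and Slc7a1 were also highest in capillary cells. Slc7a5 stood at 1883, 419 and 624 CPM in capillary, arterial and venous control cells, and at 2102, 434 and 876 CPM in tomatidine. Its capillary level was 4.49-fold (4.05 to 4.99) and 4.85-fold (4.43 to 5.31) the arterial one, and 2.58-fold and 3.11-fold per marker UMI. Over venous cells it was 3.02-fold (2.69 to 3.40) and 2.40-fold (2.17 to 2.66), or 1.57-fold and 1.92-fold per marker UMI. Slc7a1 stood at 223, 73.6 and 71.1 CPM in control and at 213, 65.6 and 92.6 CPM in tomatidine, 3.03-fold (2.36 to 3.95) and 3.25-fold (2.55 to 4.17) as high in capillary as in arterial cells, or 1.74-fold and 2.08-fold per marker UMI.

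Slc3a2, the partner of Slc7a5, was more even. Its levels were 750, 366 and 642 CPM in control and 711, 384 and 629 CPM in tomatidine, and its capillary and venous levels in tomatidine did not differ beyond counting error (1.13-fold, 0.998 to 1.28). Per marker UMI its capillary level was below the venous one, at 0.606-fold and 0.904-fold. In CPM, Slc2a1 had the lowest fold of capillary over arterial cells, 1.33 and 1.35. It stood at 3209, 2411 and 2783 CPM in control and at 3095, 2285 and 3394 CPM in tomatidine, where venous cells were highest. Per endothelial marker UMI, the capillary level of Slc2a1 was below the arterial one, at 0.764-fold and 0.869-fold, so that its order depended on the scale.

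Among the organic anion carriers, Slco1c1 stood out by its low venous level. It was at 1574 CPM in capillary, 826 CPM in arterial and 447 CPM in venous control cells, and at 1524, 766 and 413 CPM in tomatidine. Venous cells were at 0.541-fold (0.464 to 0.629) and 0.539-fold (0.461 to 0.629) the arterial level, the reverse of the order of Slco1a4 and Slco2b1. Slco1a4 stood at 1262, 462 and 709 CPM in control and at 1252, 461 and 1074 CPM in tomatidine. Slco2b1 stood at 225, 48.1 and 154 CPM in control and at 229, 64.8 and 257 CPM in tomatidine. Its venous level was 3.21-fold (2.20 to 4.72) and 3.97-fold (2.98 to 5.32) the arterial one, the widest such gap among the members. Per marker UMI, the capillary level over the venous one was 1.83-fold and 2.95-fold for Slco1c1, but 0.923-fold and 0.933-fold for Slco1a4 and 0.755-fold and 0.714-fold for Slco2b1.

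The exporters were closer together. Abcb1a stood at 1110, 582 and 646 CPM in control and at 1199, 591 and 1032 CPM in tomatidine. Abcg2 stood at 280, 111 and 187 CPM in control and at 328, 141 and 269 CPM in tomatidine. Per endothelial marker UMI, the capillary level of Abcb1a over the arterial one was 1.09-fold and 1.30-fold. Over the venous one it was 0.891-fold and 0.930-fold for Abcb1a and 0.777-fold and 0.974-fold for Abcg2 on that scale.

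**Figure D2:**
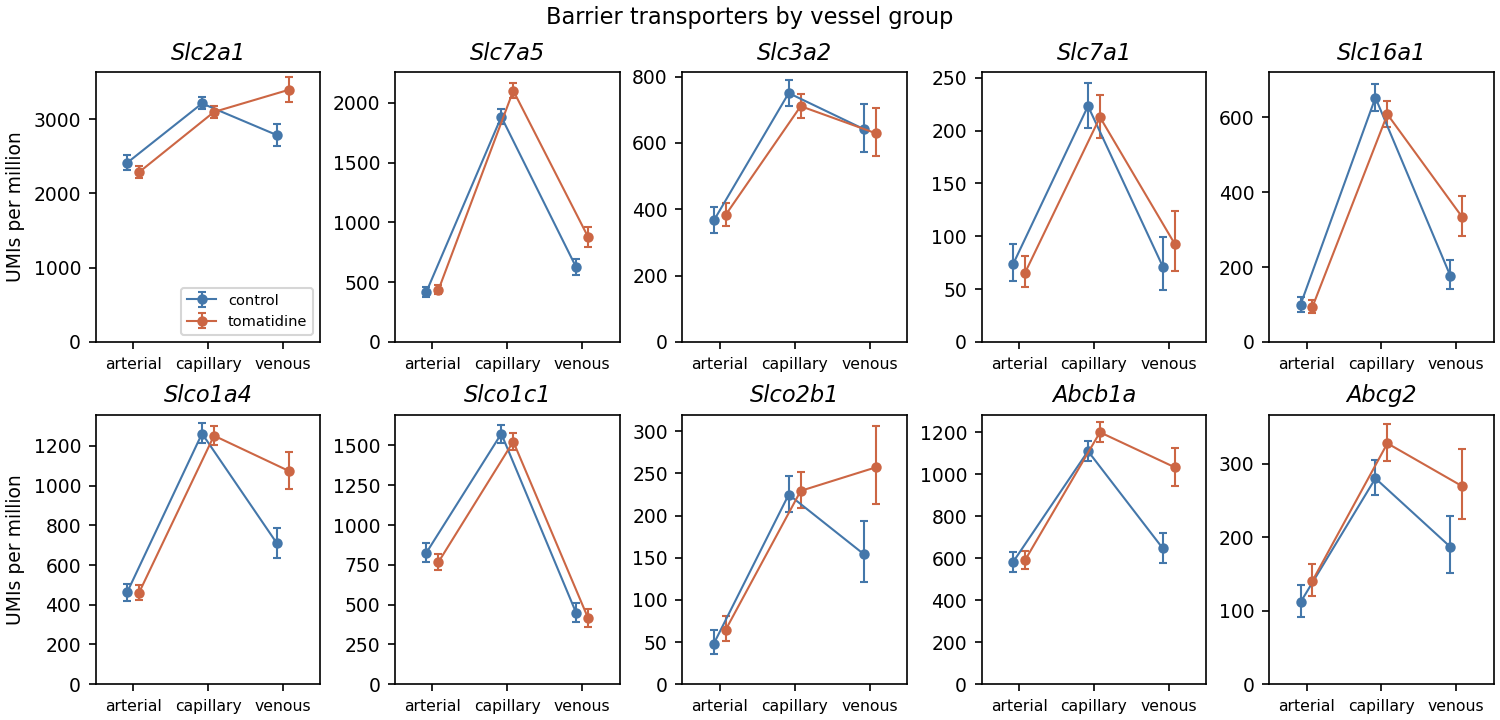
Level of each transporter gene in CPM (vertical axes, from 0) in arterial, capillary and venous endothelial-like cells of the control (blue) and tomatidine (orange) library, with exact 95% Poisson intervals for counting error. Capillary cells are highest in both libraries for 8 genes, while Slc2a1 and Slco2b1 are highest in venous cells of the tomatidine library (3394 and 257 CPM).

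Across the members, capillary cells had the highest of the 3 levels in both libraries for 8 of 10, where 14.4% of all genes tested did. On the scale of endothelial marker UMIs the count was 4, Slc16a1, Slc7a5, Slc7a1 and Slco1c1, where 1.03% of all genes did. With sub-clusters in place of a call per cell it was also 4, and they were the same 4 genes. The share of all genes was not counted for sub-clusters. At least 2-fold between capillary and arterial cells in both libraries were 6 members (1.29% of genes), and between capillary and venous cells 3 members, Slc7a5, Slc7a1 and Slco1c1 (1.72%). Slco2b1 alone was at least 2-fold higher in venous than arterial cells in both libraries (1.17%), and no member was at least 2-fold higher in arterial than venous cells (2.13%). Of the cells given a group, 54 of 567 lay near a boundary between groups.

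**Figure D3:**
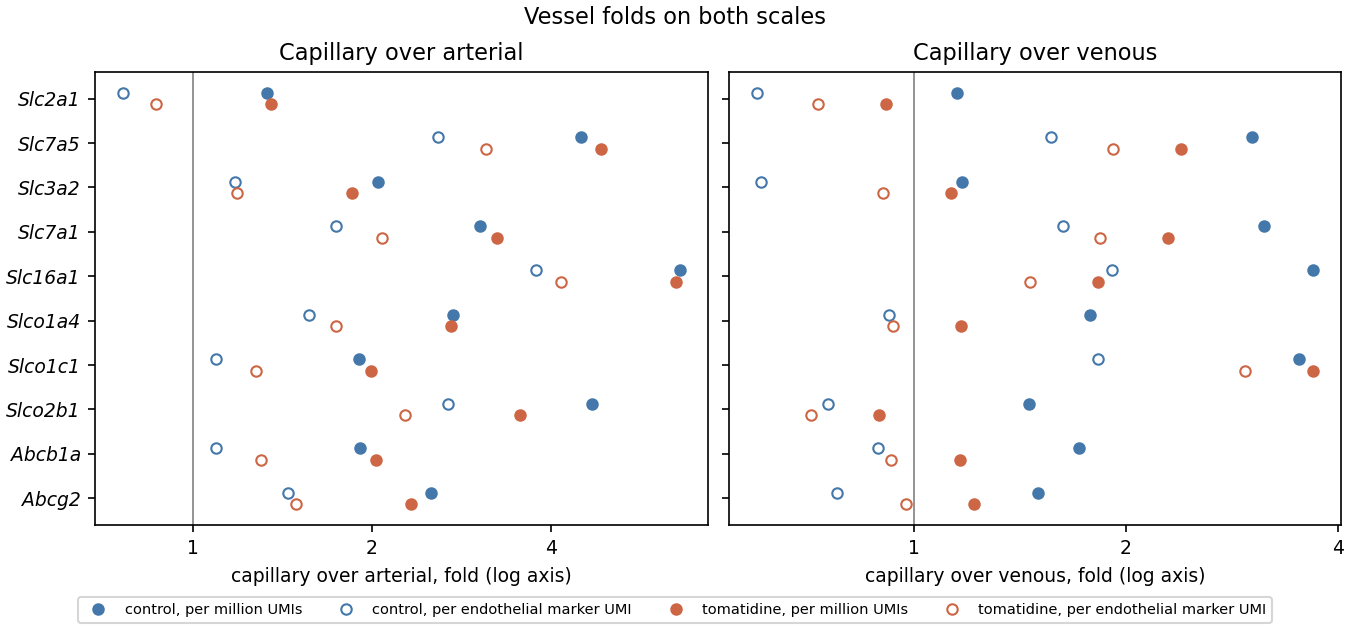
Fold of the capillary over the arterial level (left) and over the venous level (right) for each transporter gene on log axes, with filled points in CPM and open points per endothelial marker UMI, for control (blue) and tomatidine (orange). Open points lie left of filled ones throughout, and right of 1 against venous cells in both libraries only for Slc7a5, Slc7a1, Slc16a1 and Slco1c1.

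The number of members found per cell depends on the depth of the cell and the level of each gene. The median endothelial-like cell had UMIs of 9 members in control and of 8 in tomatidine, and 33.0% and 27.6% of cells had all 10. In capillary cells, with a median of 9057 and 8399 UMIs, these shares were 52.5% and 52.0%. Cells without a vessel group had a median of 1362 and 1180 UMIs and of 2 members and 1, and none had all 10. At an equal depth of 1500 UMIs per cell, 5.08 and 5.15 members were expected per endothelial-like cell, 6.27 and 6.43 in capillary cells, 3.67 and 3.42 in arterial cells, and 4.21 and 5.06 in venous cells. These values add up the shares of single genes, and whether members occur together beyond that was not tested.

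Between the groups, the members differed little in endothelial-like cells. No member was 1.2-fold higher or lower with tomatidine, where 13.2% of genes were higher and 11.4% lower by that much, and the median log2 ratio of tomatidine over control was 0.0006 over the members and 0.02 over all genes tested. By sign, 5 members were higher and 5 lower. Counting intervals lay above 0 for 3 members, where 11.0% of genes did, and below 0 for 1, where 9.93% did. Shares of genes here and below were not matched for UMIs. A gene needed only 100 UMIs in both libraries together, while Slc7a1, the least counted member, had 542 in control and 557 in tomatidine. Few UMIs can carry a gene past 1.2-fold by counting error, and many UMIs narrow its interval. Past 1.2-fold with an interval clear of 0 were 7.92% of genes higher and 7.70% lower, and no member.

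The members with intervals above 0 were Slc7a5 and both exporters. Abcg2 had a log2 ratio of 0.24 (0.10 to 0.38), from the levels of 212 and 250 CPM above. The ratio was 0.14 (0.07 to 0.21) for Abcb1a and 0.11 (0.05 to 0.17) for Slc7a5, and both of these passed below 0 when scaled to endothelial marker UMIs (−0.02 and −0.04). Slco1c1 was lower, at −0.07 (−0.14 to −0.01), but at −0.0004 with 5% of doublet scores removed. Markers of the other classes that express it were lower in these cells too, with −3.17 for choroid plexus and −0.40 for astrocytes, and their part was not tested. For the other members the intervals held 0: Slc2a1 had −0.03 (−0.06 to 0.01), Slco1a4 0.03 (−0.04 to 0.10), Slc3a2 −0.08 (−0.16 to 0.01) and Slc16a1 −0.08 (−0.19 to 0.02). The least counted members had wider intervals, −0.10 (−0.27 to 0.08) for Slc7a1 and 0.12 (−0.04 to 0.29) for Slco2b1. Endothelial markers themselves had a summed log2 ratio of 0.15 and mural markers one of 0.30. Scaling to endothelial marker UMIs shifts every gene by −0.15. On that scale 9 members were lower and only Abcg2 was higher (0.08), and the share of all genes that were lower was not counted. In the 152 control and 215 tomatidine cells with under 3 mural markers, where mural markers were at 1546 and 1335 CPM, no member's interval lay above 0. Fewer UMIs widen intervals, and Abcg2 had 175 and 240 UMIs in these cells, against 744 and 964 in all. The share of all genes with such intervals in these cells was not counted. There Slco1c1 had −0.21 (−0.34 to −0.09), Slc3a2 −0.20 (−0.37 to −0.03), Abcg2 0.18 (−0.11 to 0.47), Abcb1a 0.03 (−0.11 to 0.17) and Slc7a5 0.02 (−0.10 to 0.13).

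**Figure D4:**
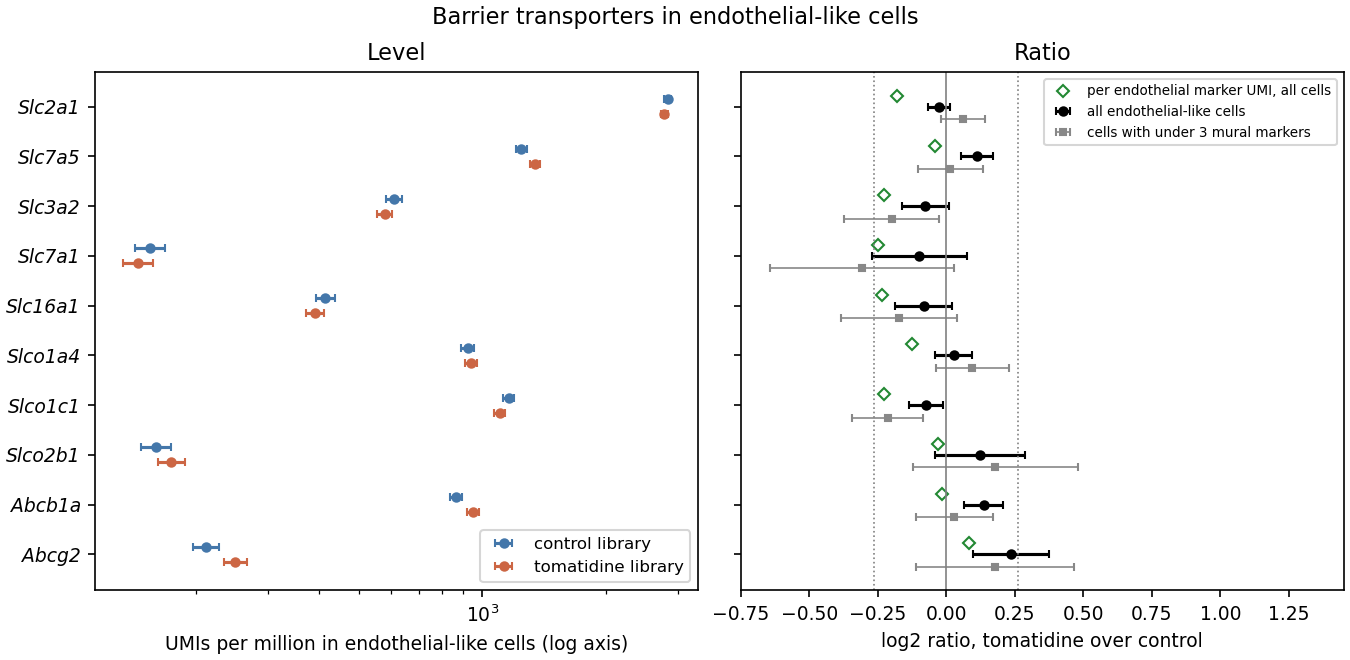
Level of each transporter gene in endothelial-like cells (left, CPM on a log axis, with exact Poisson intervals) and log2 ratio of tomatidine over control (right) in all these cells (black), in cells with under 3 mural markers (grey) and per endothelial marker UMI (green, no interval drawn). Bars are 95% counting intervals and dotted lines mark 1.2-fold; all black points lie between the dotted lines.

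By vessel group, capillary cells had intervals above 0 for Abcg2 (0.23, 0.06 to 0.39), Slc7a5 (0.16, 0.09 to 0.22) and Abcb1a (0.11, 0.03 to 0.20), where 7.99% of genes had one above 0. Slc2a1 was the member with an interval below 0 there (−0.05, −0.10 to −0.001), where 6.87% of genes had one, while that of Slco1c1 held 0 (−0.05, −0.12 to 0.03). In arterial cells all 10 intervals held 0, where 7.85% of genes had one above 0 and 8.08% one below. In venous cells 7 members had an interval above 0, where 9.07% of genes did. Among them were Slc16a1, with 177 CPM in control and 333 CPM in tomatidine (0.91, 0.53 to 1.31), and Abcb1a, with 646 and 1032 CPM (0.68, 0.47 to 0.88). The venous group held 30 control and 78 tomatidine cells, and its endothelial markers moved the same way, from 7334 to 11869 CPM. Per 1000 endothelial marker UMIs, venous Abcb1a was at 88.1 and 87.0, Slc16a1 at 24.1 and 28.1, and Slc2a1 at 380 and 286.

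The share of endothelial-like cells with a UMI gave no detectable difference at equal depth. Unthinned, Slc7a1 was found in 51.2% of control and 42.1% of tomatidine cells, a difference of −9.01 points (Newcombe interval −16.3 to −1.65). At 1500 UMIs per cell, with 47 and 75 shallower cells left out, the shares were 20.8% and 17.7%, and the interval of the difference held 0 (−3.09 points, −9.61 to 3.20). Abcg2 was at 26.5% and 33.1% after thinning (6.57 points, −0.872 to 13.8).

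Outside the endothelium, the same genes had ratios of their own, which rest on counts only. Those below are examples, and not every ratio with an interval clear of 0 is given. Slc7a5 was lower with tomatidine in interneuron-like cells, at 135 and 109 CPM (−0.31, −0.39 to −0.24). That class pools 4 clusters in unlike shares, and a cluster led by Gata3 made up 21.7% of it in control and 50.3% in tomatidine. The class name rests on the marker list, and the Gata3 cluster may hold neurons other than interneurons of the hippocampus. Within the 3 clusters with over 100 cells in each library the log2 ratios of Slc7a5 were −0.03, −0.06 and −0.32. Slc3a2 was lower in subcortical neuron-like cells, at 159 and 114 CPM (−0.48, −0.55 to −0.41), where a cluster led by Baiap3 made up 30.8% and 71.6% of the class. Within its 3 clusters the ratios were nearer 0, at −0.14, −0.18 and −0.04, so most of the gap of the whole class was not found within clusters. Slco1c1 in astrocyte-like cells was at 145 and 127 CPM (−0.19, −0.28 to −0.10), with 3 of 5 clusters lower and 2 higher. The microglia-like class is a single cluster. There Slc7a5 was higher, at 85.5 and 126 CPM (0.55, 0.28 to 0.83), and Slco2b1 lower, at 1314 and 1192 CPM (−0.14, −0.22 to −0.06). Slc7a5 was also higher in oligodendrocyte-like cells (0.59, 0.30 to 0.88) and oligodendrocyte precursor-like cells (0.36, 0.14 to 0.58). The same held for subcortical neuron-like cells (0.27, 0.16 to 0.39) and excitatory neuron-like cells (0.16, 0.11 to 0.21). Slc2a1 was higher in ependymal-like cells (0.38, 0.21 to 0.55), a class of 27 control and 12 tomatidine cells. Slc2a1 was also higher in mural-like cells (1.63, 0.77 to 2.56, from 16 and 42 UMIs) and in excitatory neuron-like cells (0.15, 0.08 to 0.22). It was lower in oligodendrocyte-like cells, at 239 and 204 CPM (−0.23, −0.29 to −0.16) and in each of their 3 clusters. In astrocyte-like cells it had −0.11 (−0.19 to −0.03), with 4 of 5 clusters lower, and in oligodendrocyte precursor-like cells −0.31 (−0.60 to −0.01).

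Another 32 genes of barrier transport were listed beside the members, of which 31 were in the files and 28 had at least 100 UMIs in endothelial-like cells. Of these 28, 15 were higher and 13 lower with tomatidine, with a median log2 ratio of 0.001. At least 1.2-fold with an interval clear of 0 were 1 higher (7.92% of all genes) and 5 lower (7.70%).

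Of 13 nutrient and ion solute carriers, the higher one was Slc5a6, the carrier of biotin and pantothenate, at 37.3 and 47.2 CPM (0.34, 0.01 to 0.67). Mfsd2a, which carries lysophosphatidylcholine with docosahexaenoic acid and restrains transcytosis, was lower, at 223 and 173 CPM (−0.36, −0.52 to −0.21). It was lower in capillary cells too, at 317 and 255 CPM, and in arterial cells, at 160 and 93.9 CPM (−0.76, −1.12 to −0.41). Venous cells had more of it, at 28.4 and 61.7 CPM from 14 and 30 UMIs (1.12, 0.16 to 2.15). Their endothelial markers also rose, from 7334 to 11869 CPM. Slc27a1, which encodes a fatty acid transport protein, was at 198 and 126 CPM (−0.65, −0.82 to −0.48), and Slc1a4, a carrier of neutral amino acids, at 51.0 and 37.6 CPM (−0.44, −0.77 to −0.12). Slc27a1, Slc1a4 and Slc5a6 were near or below the level of other cells. They were at 1.46-fold, 1.17-fold and 0.933-fold of it in control and at 0.851-fold, 0.672-fold and 0.970-fold in tomatidine. Mfsd2a was far above the level of other cells, at 19.4-fold in control and 14.8-fold in tomatidine. Astrocyte markers were lower in the tomatidine endothelial-like cells as well (−0.40), and oligodendrocyte markers too (−0.27); their part was not tested.

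Of 3 hormone and anion carriers counted, Slco3a1 was lowest, at 77.5 and 76.2 CPM (−0.03, −0.27 to 0.22). Of 6 metal carriers, the transferrin receptor among them, Slc11a2, the iron carrier DMT1, was lowest, at 47.3 and 36.5 CPM (−0.37, −0.71 to −0.04), and Slc40a1, the iron exporter ferroportin, highest (0.10, −0.06 to 0.26). Slc11a2 was below the level of other cells, at 0.818-fold of it in control and 0.595-fold in tomatidine. Of 6 ABC exporters counted, Abca1, an exporter of cholesterol, was lowest, at 63.6 and 51.6 CPM (−0.30, −0.58 to −0.02), and Abcc5 highest (0.11, −0.11 to 0.32). In each of these 3 groups at most 1 gene was past 1.2-fold.

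**Figure D5:**
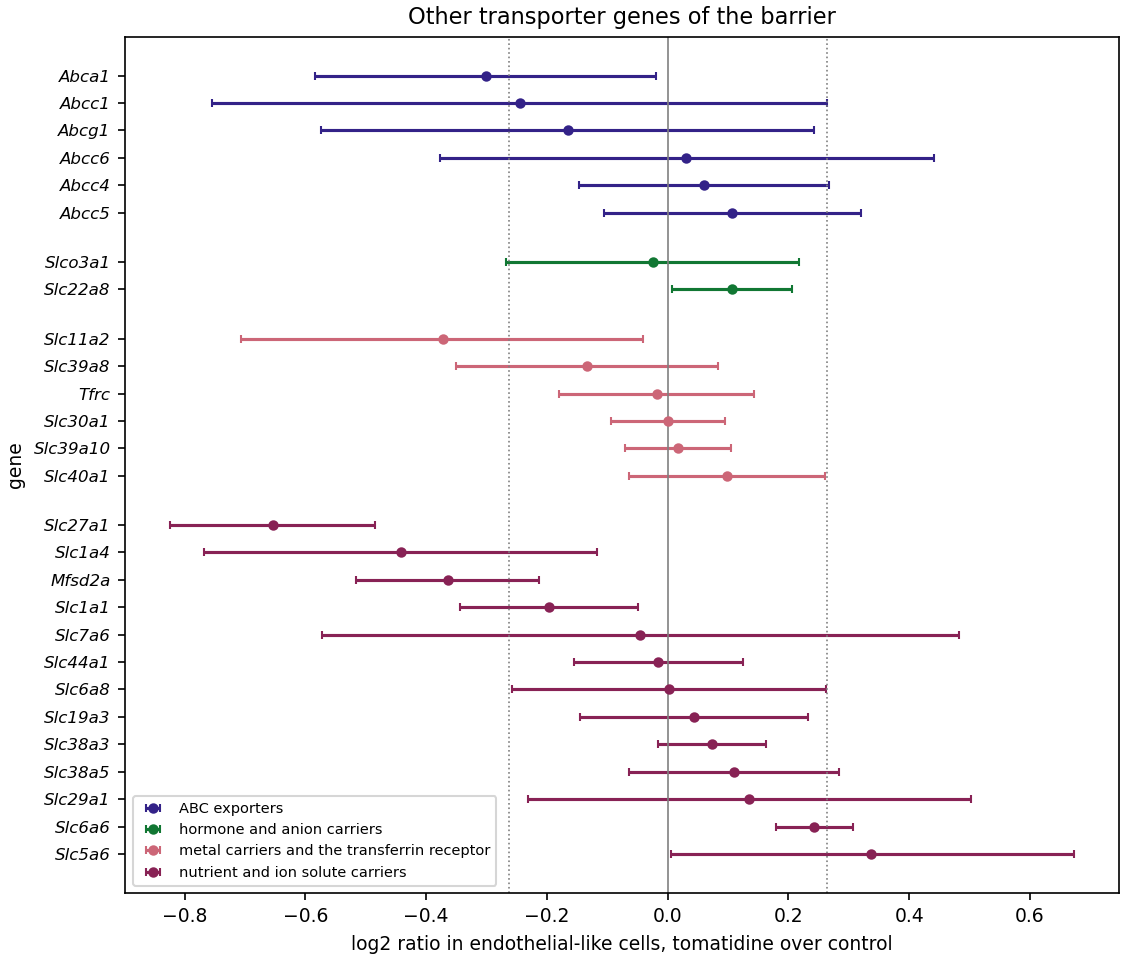
Log2 ratio between tomatidine and control endothelial-like cells (horizontal axis) for 27 of the 28 other transporter genes counted, grouped by kind, with 95% counting intervals; dotted lines mark 1.2-fold. Slc5a6 lies right of the dotted lines, and Slc27a1, Slc1a4, Slc11a2, Mfsd2a and Abca1 lie left of them.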

How the data were processed

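The authors made 1 library per group with probe-based Fixed RNA Profiling (10x Genomics) on flash-frozen hippocampus, sequenced it on AVITI and deposited raw UMI counts per gene and cell for mm10, without normalization. The matrix headers name Cell Ranger 7.1.0 and the submitters' processing notes Cell Ranger 8.0.0. The libraries hold 15912 and 15185 cells, with 279525565 and 259059908 UMIs, and 292 barcodes occur in both.

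The cell filter asked for 500 UMIs or more, over 250 genes, log10 genes over log10 UMIs above 0.8 and under 20% mitochondrial UMIs, as in the study's methods, and the 2% with the highest Scrublet scores in each library were removed (Scrublet's own threshold called 0 and 2 cells). Seurat 5.3.0 integrated the libraries by reciprocal PCA (2000 variable genes, 30 components) and gave 37 Louvain clusters at a resolution of 0.8, with the 41 transporter genes left out. A cluster took the class with the most raised markers (at least 1.5-fold, in 10% of cells), at least 3 and alone in the lead, unless another class had more markers among its top 10 genes; the clusters had been seen when this rule was written, names are not the study's, and 7 clusters stayed unnamed. An endothelial-like cell took the vessel group with the highest mean scaled level if at least 3 markers of that group and 3 endothelial markers were found; a score gap under 0.1 counted as near a boundary. The members, markers and gene lists were chosen with earlier results of these data known.

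UMIs were summed per class and library. With 1 library per group no test was run and edgeR 4.0.16 gave TMM factors alone. CPM have exact Poisson, ratios exact conditional binomial, shares exact Clopper-Pearson and differences of shares Newcombe intervals. Thinned shares are expected values at 1500 UMIs. The calculations were tested on simulated counts. Text names all members, the highest and lowest ratio in each group of other transporters and those past 1.2-fold with an interval clear of 0, and the 5 genes most alike; further genes (Slco1a5, Slco1a6, Slc38a5, Acta2, Gata3, Baiap3) were named after their values were seen, and ratios within the clusters of a class were added after seeing the data. The highest ratio among the hormone and anion carriers is not reported here. Coordinates are from GENCODE vM21 (GRCm38), promoter windows from RefSeq (GRCm38.p6). Python 3.11.15, numpy 2.4.6, scipy 1.17.1, pandas 2.3.3, scanpy 1.11.5 and matplotlib 3.10.9 were used.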

Additional observations from a re-analysis of the deposited data

Results flagged for a closer look

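A pair of members moved in opposite directions in endothelial-like cells and in another class, each with a counting interval clear of 0. Slc7a5 had a log2 ratio of −0.31 in interneuron-like cells, from 2770 control and 2949 tomatidine UMIs, and of 0.11 in endothelial-like cells. Of the 4 interneuron-like clusters, 3 were lower, at −0.03, −0.06 and −0.32, and 1 with 2 tomatidine cells was higher. The cluster led by Gata3 was 21.7% of that class in control and 50.3% in tomatidine. Scaled to endothelial marker UMIs, the ratio in endothelial-like cells was −0.04. Slco1c1 had a ratio of 1.52 in mural-like cells, from 7 control and 17 tomatidine UMIs in 40 and 39 cells, and of −0.07 in endothelial-like cells. Neither difference between classes was tested, and each class has 1 library per group.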

How the results depend on the processing

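No paired analysis was possible because each group is 1 library, and no library could be left out. The median member ratio moved from 0.001 to 0.082 with 5% of doublet scores removed, to −0.15 when scaled to endothelial markers, which shifts every gene by −0.15, and to 0.63 without cells of mixed identity. That last setting left 6 control and 22 tomatidine cells and gave no vessel groups, and its median places Abcg2, with 0 control UMIs, highest. Counts past 1.2-fold take only genes with at least 100 UMIs in the setting, which without mixed cells were 1 of the 10 members and 0 of the other transporter genes, so those counts say nothing of the rest. Without cells holding 3 or more mural markers they were 10 members and 18 others. Scaled to endothelial markers, the ratios of Slc7a5 (−0.039) and Abcb1a (−0.016) reversed. Over 15 settings the ratio of Slco1c1 ran from −0.31 (without mixed cells) to −0.0004 (5% of doublet scores removed). The count of members 1.2-fold higher went from 0 to 1 with both sets of thresholds of the study's methods, with 5% of doublet scores removed, with a pooled mix of vessel groups and without mixed cells, and that of members 1.2-fold lower from 0 to 1 with the mean over cells and without cells holding 3 or more mural markers. Members at least 4-fold higher than other cells went from 9 to 5 without mixed cells. Those highest in capillary cells went from 8 to 4 with sub-clusters and with scaling to endothelial markers. Other transporter genes 1.2-fold higher, 1 above, numbered 3 with both sets of thresholds, 3 with the mean over cells, 4 without cells holding 3 or more mural markers, 2 with a marker gate, with 5% of doublet scores removed, without the deepest 5% of cells and without cells with more mural than endothelial markers, and 0 without mixed cells and with scaling to endothelial markers. Those 1.2-fold lower, 5 above, numbered 3 with both sets of thresholds, 0 without mixed cells and 9 with scaling to endothelial markers. The cause of these moves was not tested. Scaling to endothelial markers, leaving out choroid plexus markers, leaving out cells near a boundary and both settings on mural markers were added after seeing the data.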
